A study of Mus musculus with 20 samples.

Results

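The transcriptome of mouse macrophages given a lipoparticle that carries 2 adjuvants (LP 3M PIC, called the dual formulation here) was compared with that of cells given the lipoparticle alone (LP). The sample titles name 5 LP 3M PIC and 5 LP libraries, which are 10 of the 20 in the series, and the number at the end of each title pairs them by mouse. All expressed genes entered the comparison. Of 24421 genes in the tables, 12132 passed the filter on low counts, and these held 99.969% of the counts. The cells were bone marrow-derived macrophages (BMDM), which grow out of marrow progenitors in culture. Both groups were kept in 30% medium conditioned by the L929 line, fibroblasts that secrete the growth factor CSF-1, with 20% serum, and both were exposed to their formulation for 48 h. Both groups also carry the lipoparticle, so that no value here compares treated with untreated cells. LP is taken to mean the lipoparticle named in the title of the series, and PIC and 3M are codes that the labels do not spell out. The sources used here do not give the strain, sex or age of the mice or the amounts of each adjuvant. The 5 mice are independent biological replicates, and libraries were stranded and enriched for poly(A) from total RNA. The other conditions, LP PIC and LP 3M, carry 1 adjuvant each.

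Macrophages sense microbial products through Toll-like receptors and cytosolic receptors of nucleic acids. These feed NF-kB and AP-1, which drive inflammatory genes, and interferon regulatory factors, which induce interferon beta and through it the interferon-stimulated genes. Activated macrophages are known to change their metabolism, surface receptors and lysosomal content, and CSF-1 in the medium otherwise keeps them dividing. An adjuvant is an agent added to a vaccine to engage such sensors.

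Gene counts summed to between 9.74 and 23.8 M (mega) in LP and between 12.5 and 23.4 M in the dual group, lowest in LP of mouse 2 and LP 3M PIC of mouse 3. A floor of 3 counts corresponds to 0.126 to 0.308 CPM in LP, where CPM is a gene's count scaled to a library of fixed size. The labelled cell type was checked on 9 macrophage markers, all of which were present. Their summed level was 11480 to 19040 CPM in LP and 12410 to 17140 CPM in the dual group. Defining genes of T and NK cells (Cd3e, Cd3g, Cd8a, Nkg7, Ncr1), B cells (Pax5), mast cells (Cpa3, Fcer1a, Ms4a2) and red cells (Hbb-bs, Hba-a1) had no counts in any of the 10 libraries. Of 12 neutrophil markers in the tables, 5 were tested and all 5 rose, which took their summed level from between 39.5 and 77.6 CPM to between 333 and 4131 CPM. Lcn2, S100a8, Csf3r and Mmp8 made up nearly all of it. Cxcr2 and Retnlg, which define mature neutrophils, had no counts, and Mpo, Elane, Ngp, Ltf and S100a9 stayed under 1 CPM in every library. The summed dendritic cell markers went from a mean of 1.38 to 26.9 CPM, nearly all of it Ccr7, with Xcr1 and Cd209a at 0. Stromal markers summed to between 14.9 and 63.7 CPM in LP and between 31.2 and 132 CPM in the dual group. The lists of T and NK, B and mast cells summed to at most 2.69 CPM in any library. In the list of red cells and megakaryocytes the sum went from a mean of 24.1 to 67.4 CPM, nearly all of it Pf4, a platelet chemokine, which was not called (adjusted p = 0.0544, and 0.0487 without mouse 3). Endothelial markers summed to between 28.9 and 46.8 CPM in LP and between 34.3 and 155 CPM in the dual group, nearly all of it Kdr, which rose by 1.49 ± 0.33. Of 3 tested endothelial markers 2 rose. Pecam1 was at 0 to 0.411 CPM in LP and at 0.769 to 2.39 CPM in the dual group. Cdh5 and Tek were at or under 1.24 CPM in every library. Cdh5 was not called, and was without LP 3M PIC of mouse 3 (adjusted p = 0.0295). The part of other cells in the results was not tested. In bulk samples, fewer cells of a type and less RNA per cell cannot be told apart.

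Most of the tested genes differed between the groups, and the rises went further than the falls. edgeR's quasi-likelihood test called 7551 genes at a Benjamini-Hochberg adjusted p under 0.05, 62.2% of those tested. Of these 3840 rose (31.7% of all tested) and 3711 fell (30.6%). Every count of list members below is to be read against these shares. Of 42 gene lists, 12 held shares of risen and of fallen members that both lay within 15 percentage points of these, and nothing is read from their counts. They are the lists of cytokine receptors, chemoattractant receptors, itaconate and citric acid cycle, prostaglandins, matrix, adhesion, alternative activation, lineage factors, AP-1, the BCL2 family, redox and osteoclast-type genes. The words rose and fell are used only for called genes, and a change is a log2 fold change, given with its SE. A change of at least 1 was reached by 1176 risen (9.69%) and 1500 fallen genes (12.4%), together 22.1% of all. At larger changes the order turned round. At least 3 was reached by 382 risen and 189 fallen genes, at least 5 by 156 and 26, and at least 8 by 40 and 2. The median over all tested genes was 0.02, with 0.05 and 0.95 quantiles of −1.90 and 2.04. The 5 libraries of one group lay wholly apart from the 5 of the other for 5602 genes (46.2%). Of the 2676 genes called with a change of at least 1, 2584 moved the same way in 5 of 5 mice and 2368 had no overlap between the groups. These genes were selected in the same libraries, so both counts were largely set in advance. Called genes were 44.2% of those under 1 CPM on average and 74.1% of those at 1000 CPM or more. Long noncoding RNA genes were called in 46.7% of 321 cases and protein-coding genes in 63.1% of 11586.

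**Figure D1:**
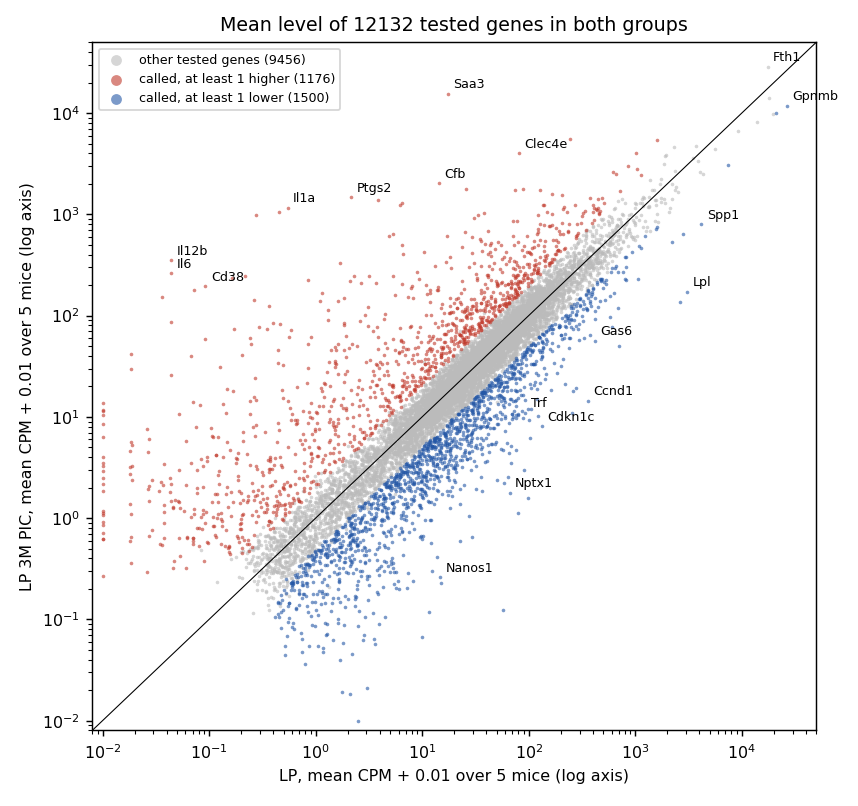
Mean level of each tested gene in LP (x axis) and LP 3M PIC (y axis), in CPM plus 0.01 on log axes, over 5 mice each; the line marks equal levels. The 1176 called genes at least 1 higher in log2 reach much farther from the line than the 1500 at least 1 lower. Il1a, Il6 and Il12b stand toward the upper left, and Saa3 near the top at the middle of the x axis.

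The share of all gene counts held by called genes gives the size of the changes. The genes were selected by their change in the same libraries, so the direction of both shifts was set in advance. The 1176 genes that rose by at least 1 took 4.50 to 5.68% of all gene counts in LP and 16.98 to 23.97% in the dual group. The 1500 that fell by at least 1 went the other way, from between 15.6 and 16.9% to between 4.48 and 7.496%. In CPM, which is not corrected for gene length, the largest gain was that of Saa3, a serum amyloid A protein made by macrophages (17.5 ± 10.2 to 15523 ± 11789 CPM; mean ± SD, n = 5, here and in what follows). Fth1, the ferritin heavy chain, was next (17467 ± 1355 to 28808 ± 4333), followed by the chemokine Ccl5 (246 ± 211 to 5583 ± 1797), the C-type lectin Clec4e (81.4 ± 41.8 to 4004 ± 924), H2-K1, Cybb, B2m and Hmox1. The largest losses were those of Gpnmb, a glycoprotein of the endolysosome (26506 ± 1250.2 to 11819 ± 4089), and of the lysosomal proteases Ctsd (21133 ± 4484 to 9988 ± 1767) and Ctsb (19468 ± 2088 to 9851 ± 1291). Psap, Lgals3, Ftl1, Spp1 and Lpl followed, with the Ftl1 call (adjusted p = 0.0272) lost without mouse 1 (0.120), mouse 2 (0.152) or mouse 4 (0.0767). Fth1 and Ftl1 have near-identical pseudogene copies, and how the counting treated shared reads is not given, so their values are uncertain.

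The genes with the smallest p-values were ones with little spread between mice. Trf, which encodes the iron carrier transferrin, was at 106, 94.97, 91.3, 99.00 and 74.2 CPM in LP of mice 1 to 5 and at 11.3, 11.5, 10.5, 11.3 and 10.4 CPM in the dual group. Every dual library lay far under every LP library (−3.08 ± 0.12, adjusted p = 9.94e-13). Cd302, a C-type lectin, was at 47.3, 42.7, 48.1, 45.6 and 45.97 CPM in LP and at 163, 189.9, 160.00, 152 and 188 CPM in the dual group, with no overlap (1.89 ± 0.07, adjusted p = 9.94e-13). The copper transporter gene Slc31a2 (2.79 ± 0.12), the inflammasome sensor Nlrp3 (2.85 ± 0.12), the RNase gene Zc3h12c (2.95 ± 0.12) and the mitochondrial superoxide dismutase Sod2 (4.54 ± 0.19) completed this set of 6.

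A small number of genes with at least 5 CPM in one group were almost silent in the other, mostly in LP. Of 12132 tested genes, the mean lay under 0.1 CPM in LP and at 5 CPM or more in the dual group for 29. The reverse held for 1. No count was seen in any LP library for Nhs (at least 435-fold higher), Lum (at least 409-fold higher), Sprr2d (at least 368-fold higher), Draxin (at least 306-fold higher) and Krt16 (at least 300.3-fold higher). These are lower bounds for counts summed over the dual group, against 3 counts over the LP group, and not for each mouse. Draxin was at 15.1, 21.2, 0.823, 5.13 and 0.725 CPM in dual mice 1 to 5. Lum encodes a collagen-binding proteoglycan, Krt16 a keratin, Sprr2d a protein of the cornified envelope and Draxin an axon guidance factor. Shisa3 was at 0.0399, 0, 0.131, 0 and 0 CPM in LP and at 140.1, 75.2, 71.7, 132 and 11.9 CPM in the dual group, lowest in mouse 5 (10.95 ± 1.00, adjusted p = 3.32e-08). Cd38, an enzyme that consumes NAD, was at 0.1996, 0, 0.0876, 0.0829 and 0.0419 CPM in LP and at 287, 364, 88.6, 172 and 63.9 CPM in the dual group (10.94 ± 1.14, adjusted p = 1.64e-07). The 1 reverse case was Pgm5, a relative of phosphoglucomutase (9.99 ± 5.18 to 0.0563 ± 0.0382 CPM, −7.20 ± 0.58). The largest fall was that of Mamdc2 (57.8 ± 4.52 to 0.115 ± 0.0807 CPM, −8.92 ± 0.88), followed after Pgm5 by the DNA-binding factor Tox2 (−6.61 ± 0.63), the progenitor marker Cd34 (−6.22 ± 1.16), Pcp4l1 (−6.09 ± 0.35) and the intermediate filament gene Nes (97.8 ± 19.00 to 1.57 ± 0.853 CPM). Next came Nanos1, an RNA-binding protein (14.7 ± 3.77 to 0.252 ± 0.176 CPM, −5.72 ± 0.41), the small GTPase Rab15 (−5.57 ± 0.73), the proteoglycan Cspg4 (−5.44 ± 0.99), the diacylglycerol kinase Dgkg (−5.30 ± 0.95), the sulfotransferase Chst3 (−5.24 ± 0.59), Nptx1 (−5.21 ± 0.41), the kinase Matk (−4.94 ± 0.47) and Fam198b (−4.90 ± 0.34).

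Most inflammatory cytokine genes rose, and Il6, Il12b and Il1a did so from under 2 CPM. Of 23 tested cytokine ligands 19 rose and 1 fell, with a median of 4.94 against 0.02 over all genes. Il6, an acute-phase cytokine, was at 0, 0, 0.0876, 0.0829 and 0 CPM in LP and at 363, 369, 231, 274 and 72.1 CPM in the dual group, and Il12b, a subunit of interleukins 12 and 23, at 0.0399, 0, 0.131, 0 and 0 and 547, 241, 357, 525 and 97.9 CPM. Both were lowest in mouse 5 among the dual libraries and far above every LP library. Il1a, which encodes interleukin 1 alpha, was at 0.1996, 0.0958, 1.84, 0.166 and 0.377 CPM in LP and at 1483, 2074, 699, 1302 and 283 CPM in the dual group (10.99 ± 1.00, adjusted p = 3.29e-08). Its highest LP value and its second lowest dual value were both from mouse 3. Il12a, the partner subunit of Il12b in interleukin 12, was without counts in LP and at least 129-fold higher in the dual group. Ifnb1, the interferon beta gene, had 1 count over the 5 LP libraries and 283 over the dual ones, 288.1 times as many after scaling (counting interval 51.29 to 11420). Inhba, the activin A subunit, rose evenly, from 1.08, 1.34, 1.23, 0.953 and 0.797 to 127, 154, 166, 148 and 98.99 CPM (7.03 ± 0.60, adjusted p = 1.31e-08). Ebi3, shared by interleukins 27 and 35, rose by 2.01 ± 0.17. Vegfa, the vascular growth factor, was the 1 member that fell (−0.62 ± 0.19, adjusted p = 0.00890, and 0.0744 without mouse 4).

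The promoter of Il6 is shown because it holds the NF-kB type of match that was more frequent among cytokine genes than among all genes. It spans chr5:30012864-30013163 on the plus strand of GRCm38.p6 (RefSeq), from 250 bases before to 50 bases after the annotated start, with motif matches in capitals. They are, from the 5′ end, an AP-1 site, a CCAAT box and an NF-kB site.
Il6: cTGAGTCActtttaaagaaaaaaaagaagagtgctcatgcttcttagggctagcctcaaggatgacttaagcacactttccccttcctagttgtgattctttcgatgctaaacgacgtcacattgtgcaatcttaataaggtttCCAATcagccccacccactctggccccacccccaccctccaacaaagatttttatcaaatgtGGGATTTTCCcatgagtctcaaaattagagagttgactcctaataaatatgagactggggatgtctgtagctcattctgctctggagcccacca
The letters searched on both strands were GGGA, any base and TTTCC for NF-kB, TGANTCA for AP-1 (N is any base) and CCAAT for the CCAAT box. The NF-kB letters were found in 0.499% of 11825 promoter windows of tested genes, in 1.33% of those of genes that rose by at least 1, and in 3 of 19 windows of cytokine genes (15.8%). For chemokines it was 3 of 15 (20.0%). A gene with several annotated starts has a window for each. A match describes the sequence and is not evidence of binding.

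Chemokines for neutrophils, monocytes and T cells rose together. Of 22 tested chemokines 17 rose and 2 fell (median 3.49), and their share of all counts went from between 0.0831 and 0.149% to between 0.774 and 1.30%. Cxcl1 (0.385 ± 0.205 to 85.2 ± 29.1 CPM) and Cxcl2 (4.84 ± 1.803 to 609.7 ± 189), which attract neutrophils, rose by 7.80 ± 0.68 and 6.98 ± 0.54. Cxcl10, which attracts activated T cells, rose by 7.23 ± 0.54 and Ccl22, which attracts cells with the receptor CCR4, by 7.92 ± 0.74. Ccl5 was at 121, 84.1, 584, 321 and 119 CPM in LP and at 5751, 3382, 7469, 7155 and 4160.1 CPM in the dual group. Mouse 3 was highest in both groups, and the groups did not overlap (4.50 ± 0.57, adjusted p = 1.62e-06). Ccl6 went against the rest (67.7 ± 27.1 to 18.5 ± 5.97 CPM, −1.88 ± 0.38). Among 23 receptors for chemoattractants 9 rose and 7 fell, against 31.7% and 30.6% of all tested genes. The formyl peptide receptors Fpr1 (0.253 ± 0.139 to 142 ± 64.2 CPM) and Fpr2, which detect bacterial peptides, were among the risen. Fpr2 was at 0.0798, 0.0958, 0.219, 0.166 and 0.2097 CPM in LP and at 213, 113, 348, 288 and 202 CPM in the dual group (10.46 ± 0.67, adjusted p = 4.60e-10). Gpr84, a receptor for medium-chain fatty acids, rose by 5.79 ± 0.34, and the adenosine receptors Adora2a and Adora2b by 7.94 ± 0.44 and 3.82 ± 0.24. Cxcr3, the receptor for Cxcl10, fell from 9.95 ± 1.87 to 0.613 ± 0.315 CPM (−3.98 ± 0.37), and Cx3cr1, the fractalkine receptor, fell from 59.1 ± 37.4 to 2.24 ± 0.382 CPM (−4.73 ± 0.91).

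**Figure D2:**
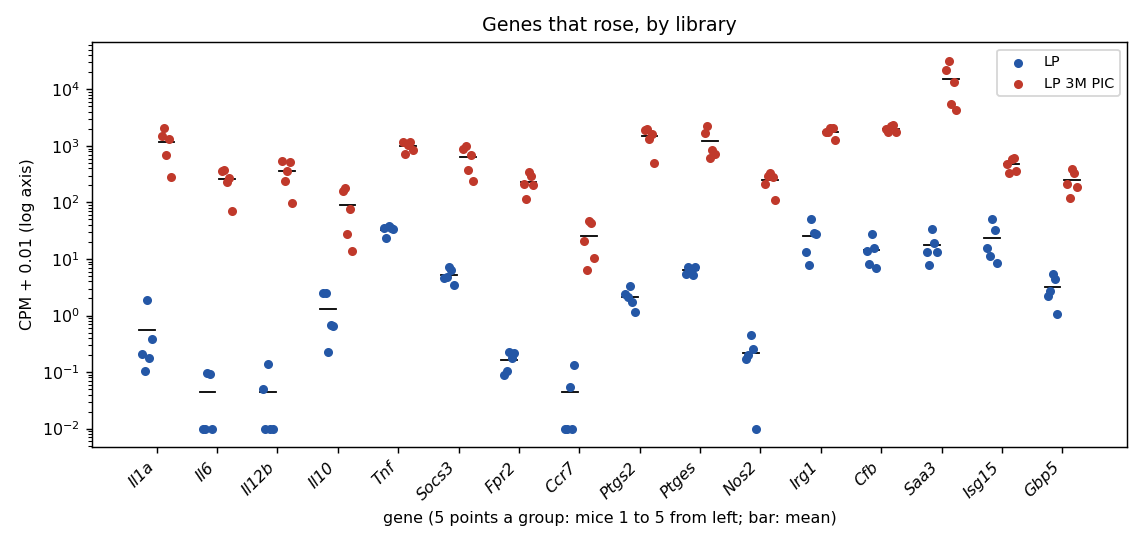
CPM plus 0.01 (log axis) of 16 genes that rose, with 1 point for each of mice 1 to 5 in LP (blue) and LP 3M PIC (red) and a bar at the group mean; points at 0.01 had no counts. The groups do not overlap for any of the 16, which were picked from called genes. Of all tested genes, 23.1% had every dual library above every LP library. The mouse 5 point is often the lowest of the dual group.

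The TNF family receptors Cd40, Fas and Tnfrsf9 rose. Of 20 TNF superfamily genes 11 rose and 7 fell, against 31.7% and 30.6% of all tested genes. Cd40, the receptor for T cell help, rose from 5.27 ± 1.08 to 248 ± 128 CPM (5.57 ± 0.46), the death receptor Fas by 3.16 ± 0.20, Tnfrsf9 by 4.80 ± 0.35 and Tnfrsf1b, a receptor for TNF, by 2.10 ± 0.15. Tnfsf13, which encodes the B cell factor APRIL, fell by 2.14 on the log2 scale. Of 32 cytokine receptors 14 rose and 10 fell, against 31.7% and 30.6% of all tested genes. Il15ra rose by 2.61 ± 0.37, the interleukin 4 receptor Il4ra by 1.70 ± 0.26 and Csf2rb, shared by receptors for GM-CSF and interleukin 3, by 1.21 ± 0.16. Csf1r, the receptor of the CSF-1 in the medium, went from 1881 ± 179 to 1403 ± 156 CPM (−0.42 ± 0.11). Il10rb (−0.66 ± 0.08) and Lifr (−3.02 ± 0.45) also fell.

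Sensors of microbial products mostly rose. Of 25 Toll-like receptor and adaptor genes 16 rose and 4 fell. Tlr2, which detects bacterial lipopeptides, rose from 78.7 ± 27.04 to 532 ± 117 CPM (2.75 ± 0.22) and its partner Tlr6 by 1.41 ± 0.11, and the coreceptor Cd14 was at 295, 283, 283, 291 and 213 CPM in LP and at 1208, 1442, 1407, 1202 and 985 CPM in the dual group (2.19 ± 0.20, adjusted p = 1.79e-08). Tlr4, the endotoxin receptor, was not called (54.6 ± 10.6 to 50.7 ± 4.91 CPM, −0.10 ± 0.19, adjusted p = 0.640). Irak3, an inhibitor of the pathway, rose by 3.45 ± 0.16, and the kinase Irak4 fell (−0.65 ± 0.05). Of 18 genes in a list of cytosolic sensors, mainly of nucleic acids but also of peptidoglycan, 13 rose. They included Ifih1, a sensor of long double-stranded RNA (54.4 ± 17.4 to 212 ± 28.5 CPM, 1.96 ± 0.24), the DNA-binding Ifi205 (6.73 ± 0.56) and the peptidoglycan sensors Nod1 (2.65 ± 0.23) and Nod2 (2.79 ± 0.30). Mavs, the adaptor of the RNA sensors, was the 1 member that fell (−0.19 ± 0.07, adjusted p = 0.0356), a call lost without mouse 1 (0.111), mouse 3 (0.207) or mouse 4 (0.139). Of 22 inflammasome and lytic death genes 13 rose and 5 fell (3 without mouse 3, mouse 4 or mouse 5). Nlrp3 went from 42.6, 35.8, 41.1, 54.2 and 40.2 CPM in LP to 326, 365, 285, 326 and 242 CPM in the dual group, while the related sensor Nlrp1b fell from 36.1 ± 5.85 to 2.52 ± 1.102 CPM (−3.82 ± 0.32). Mefv, which encodes pyrin, rose by 4.69 ± 0.52.

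NF-kB genes and the brakes of the response rose side by side. Of 25 NF-kB subunits and feedback genes 24 rose and 0 fell (median 1.63). The deubiquitinase Tnfaip3, an inhibitor of NF-kB, was at 49.3, 46.8, 34.05, 37.9 and 39.9 CPM in LP and at 427, 489, 372, 436 and 283 CPM in the dual group (3.27 ± 0.15, adjusted p = 3.58e-12). Nfkbia, the inhibitor that holds NF-kB in the cytoplasm, rose by 3.11 ± 0.18 and the RNase Zc3h12a, which degrades cytokine mRNA, by 3.00 ± 0.16. Of 25 further negative regulators 14 rose and 3 fell. Socs3, a brake on cytokine receptors, was at 4.67, 4.696, 7.32, 6.34 and 3.397 CPM in LP and at 897, 1009.8, 377, 692 and 238 CPM in the dual group, lowest in mouse 5 (6.92 ± 0.52, adjusted p = 3.04e-09). Socs1 rose by 4.96 ± 0.55 and Cd274, which encodes the T cell inhibitor PD-L1, by 3.48 ± 0.24 to 869 ± 192 CPM. Atf3, a repressor of inflammatory genes, fell (373 ± 37.6 to 258 ± 22.2 CPM, −0.53 ± 0.09). Of 24 AP-1 and immediate early factors 9 rose and 4 fell (7 without mouse 2), against 31.7% and 30.6% of all tested genes. Junb rose by 1.17 ± 0.11 and Jun fell (−0.96 ± 0.11), and Hif1a, the hypoxia factor, rose by 1.66 ± 0.10.

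Interferon-stimulated genes rose almost throughout. Of 45 antiviral genes 41 rose and 1 fell (median 1.80), and of 17 guanylate-binding proteins and immunity-related GTPases, which attack vacuoles of intracellular microbes, 16 rose and 0 fell (median 3.91). Isg15, a ubiquitin-like modifier, was at 15.8, 11.3, 50.7, 32.4 and 8.64 CPM in LP and at 479, 337, 595, 602 and 356 CPM in the dual group. Gbp5 was at 2.195, 2.68, 5.52, 4.48 and 1.05 CPM in LP and at 216, 119, 384, 336 and 185 CPM in the dual group (6.27 ± 0.63, adjusted p = 9.98e-08). In both genes mouse 3 was highest and mouse 5 lowest within LP. Ms4a4c rose by 6.34 ± 0.81 and Slfn1 by 4.94 ± 0.59, while Slfn9, of the same schlafen family, fell from 29.2 ± 7.55 to 10.9 ± 1.81 CPM (−1.43 ± 0.22). Of 22 interferon regulatory factors, STATs and partners 14 rose and 2 fell. Batf, which pairs with IRF proteins, rose by 4.49 ± 0.34, the kinase Jak2 by 3.95 ± 0.29 and Irf7, the amplifier of interferon genes, by 2.42 ± 0.56. Irf5 fell (259 ± 27.9 to 172 ± 42.1 CPM, −0.60 ± 0.16).

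The Isg15 promoter is given because its matches to the interferon-stimulated response element (ISRE), searched on both strands as GAAA, any 2 bases and GAAA, overlap one another. It lies at chr4:156200769-156201068 on the minus strand of GRCm38.p6 (RefSeq), with the matches in capitals.
Isg15: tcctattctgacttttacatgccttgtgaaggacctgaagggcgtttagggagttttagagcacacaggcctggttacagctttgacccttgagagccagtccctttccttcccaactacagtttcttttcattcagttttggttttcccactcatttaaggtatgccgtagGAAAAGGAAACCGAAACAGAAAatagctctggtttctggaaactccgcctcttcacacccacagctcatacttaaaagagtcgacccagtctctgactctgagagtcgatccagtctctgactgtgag
The matches start 78, 72 and 66 bases before the annotated start. ISRE letters were found in 3.26% of all 11825 windows and in 7.87% of those of genes that rose by at least 1. Among antiviral genes they were in 18 of 42 windows (42.9%), and among guanylate-binding proteins and GTPases in 9 of 11 (81.8%).

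Most antigen presentation genes of both MHC classes rose. The class I list went from between 0.776 and 1.11% of all counts to between 1.53 and 2.35%. The share of the class II list did not separate the groups, at 0.505 to 0.668% in LP and 0.332 to 0.738% in the dual group. Most of this share in LP was the protease Ctss, which fell. Against it, the class II chains H2-Aa (3.29 ± 0.52) and H2-Eb1 (3.97 ± 0.61) rose, so the share does not describe the members other than Ctss. Of 22 MHC class I and immunoproteasome genes 21 rose and 0 fell (median 1.30), among them H2-K1 (1585 ± 459.9 to 5401 ± 1099 CPM), the light chain B2m (0.98 ± 0.15) and the proteasome subunits Psmb8 (1.80 ± 0.19) and Psme2 (2.03 ± 0.20). H2-M2, a non-classical class I gene, rose from 6.45 ± 3.08 to 1299.7 ± 491 CPM (7.65 ± 0.55). Reads of H2 genes can be shared between near-identical family members, so single H2 values are uncertain. Of 15 class II genes 11 rose and 1 fell (2 without mouse 5). Ciita, the master regulator of class II, was at 3.23, 2.11, 2.54, 1.699 and 0.713 CPM in LP and at 24.5, 8.82, 98.02, 61.2 and 47.1 CPM in the dual group (4.53 ± 0.54, adjusted p = 9.09e-07). H2-Ab1 was at 40.2, 35.2, 73.1, 40.5 and 16.6 CPM in LP and at 418, 294, 1132, 800.4 and 792 CPM in the dual group. Mice 1 and 2 had the lowest dual values of both genes, and no dual value overlapped with LP. Ctss, the protease that trims the class II invariant chain, was the 1 member that fell (4348 ± 636 to 2480.1 ± 498 CPM, −0.81 ± 0.14). Of 22 costimulatory and checkpoint genes 15 rose and 5 fell (2 without mouse 1 and 3 without mouse 4). Icam1 rose by 2.42 ± 0.23, Slamf7 by 2.58 ± 0.17 to 999.99 ± 161 CPM, and Cd86 by 1.64 ± 0.22, while Havcr2, which encodes the checkpoint receptor TIM-3, fell from 112 ± 11.9 to 20.5 ± 12.3 CPM (−2.45 ± 0.29).

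Ptgs2 and Ptges, enzymes of prostaglandin E2 synthesis, rose, and Ptgs1 and Tbxas1 fell. Of 18 tested prostaglandin and leukotriene genes 8 rose and 8 fell, against 31.7% and 30.6% of all tested genes. Their median was 0.18, and −0.09 without LP 3M PIC of mouse 3. Ptgs2, the inducible cyclooxygenase, was at 2.395, 2.11, 3.37, 1.74 and 1.13 CPM in LP and at 1931, 1969.5, 1324, 1660.01 and 509 CPM in the dual group (9.42 ± 0.79, adjusted p = 1.14e-08). Ptges, which makes prostaglandin E2 from its product, was at 5.39, 7.09, 6.49, 5.18 and 7.09 CPM in LP and at 1708, 2300.02, 614, 850.1 and 724 CPM in the dual group (7.64 ± 0.63, adjusted p = 9.10e-09). Ptges was above 1000 CPM in mice 1 and 2 and below it in mice 3 to 5. Ptgs1, the constitutive cyclooxygenase, fell from 25.3 ± 8.77 to 4.53 ± 1.59 CPM (−2.47 ± 0.41), and so did the thromboxane synthase Tbxas1 (133 ± 6.83 to 39.7 ± 12.5 CPM, −1.74 ± 0.17), the prostaglandin D2 synthase Hpgds (−0.76 ± 0.09) and the prostaglandin E2 receptor Ptger4 (−1.73 ± 0.14). Hpgd, which inactivates prostaglandins, had 244 counts over the 5 LP libraries and 1 over the dual ones, 239.7 times fewer after scaling (counting interval 42.62 to 9505).

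Irg1, which makes itaconate, rose in every mouse. It was at 13.5, 7.86, 50.2, 28.4 and 27.8 CPM in LP and at 1759, 1768, 2085, 2089 and 1270.5 CPM in the dual group (6.12 ± 0.41, adjusted p = 6.79e-10). Of 24 itaconate and citric acid cycle genes 6 rose and 7 fell (median 0.03), against 31.7% and 30.6% of all tested genes. The cytosolic Mdh1 fell (−0.95 ± 0.09) and the mitochondrial Mdh2 rose (1.01 ± 0.12), and Pcx, which refills the cycle, rose by 1.60 ± 0.20. Of 15 arginine and nitric oxide genes 7 rose and 4 fell, against 31.7% and 30.6% of all tested genes. The arginine transporter Slc7a2 rose from 37.7 ± 9.72 to 1019.5 ± 711 CPM (4.76 ± 0.56) and Gch1, which makes the cofactor of nitric oxide synthase, by 2.23 ± 0.13. Arg1, an arginase, was at 1.198, 1.73, 0.0876, 0 and 0.168 CPM in LP and at 11.9, 33.98, 0.165, 0.486 and 0.0853 CPM in the dual group. It was high in mice 1 and 2 and under 1 CPM in mice 3 to 5, and the groups overlapped (4.09 ± 1.43, adjusted p = 0.0187). The call was lost without mouse 2 (adjusted p = 0.101). Arg2 rose by 4.26 ± 0.26. Of 12 tryptophan and NAD genes 7 rose and 3 fell, among them Nampt, which recycles NAD (1.45 ± 0.11). Ido1, which degrades tryptophan, went from 1 count over the LP libraries to 282, 287.1 times as many after scaling (counting interval 51.11 to 11380).

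The transporter Slc2a6 and the enzyme Pfkl rose, and their family members Slc2a3 and Pfkp fell. Of 31 glycolysis genes 15 rose and 9 fell, against 31.7% and 30.6% of all tested genes. Slc2a6 rose (56.5 ± 10.8 to 365 ± 153 CPM, 2.69 ± 0.28) and the glucose transporter Slc2a3 fell (17.97 ± 2.51 to 5.38 ± 0.242 CPM, −1.74 ± 0.15). The phosphofructokinase Pfkl rose (1.30 ± 0.13) and its family member Pfkp fell (−1.31 ± 0.12), and Hk2, the inducible hexokinase, rose by 1.52 ± 0.14. Oxidative phosphorylation genes changed little in size, with 21 of 40 risen, 2 fallen (4 without LP of mouse 2 or without LP 3M PIC of mouse 5) and a median of 0.19. Cytosolic ribosomal proteins showed small falls, 35 of 61 with 0 rises (2 without mouse 3) and a median of −0.26. Of 28 redox genes 11 rose and 6 fell, which is near the shares over all tested genes. Sod2 was at 67.3, 61.05, 89.7, 73.1 and 82.3 CPM in LP and at 1883, 1969.7, 1530.01, 1827 and 1488 CPM in the dual group (4.54 ± 0.19, adjusted p = 1.90e-12), and the cytosolic Sod1 fell (247 ± 12.8 to 151 ± 23.8 CPM, −0.71 ± 0.13). Slc7a11, which imports cystine for glutathione, rose from 10.4 ± 5.404 to 429 ± 73.6 CPM (5.35 ± 0.34) and Hmox1, which breaks down heme, by 1.82 ± 0.23. Of 28 genes of the unfolded protein and integrated stress responses 16 rose and 5 fell, led by Nupr1 (3.32 ± 0.27), with the sensor kinase Eif2ak3 among the fallen (−0.89 ± 0.10). Of 29 transporters associated with activation 20 rose and 5 fell. Slc37a2 was one of the fallen (388 ± 39.9 to 125 ± 9.57 CPM, −1.64 ± 0.09).

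Acute-phase and antimicrobial genes rose by large and uneven amounts. Of 19 tested genes 14 rose and 2 fell (median 2.80). Saa3 was at 13.1, 7.95, 34.4, 18.9 and 13.4 CPM in LP and at 22072, 32284, 5463, 13539 and 4256 CPM in the dual group (9.78 ± 1.07, adjusted p = 2.91e-07). Lcn2, which withholds iron from bacteria, was at 2.195, 0.575, 8.76, 3.69 and 3.82 CPM in LP and at 1960.2, 3446, 369.7, 1032 and 192 CPM in the dual group (8.47 ± 1.00, adjusted p = 7.68e-07). S100a8, a calcium-binding antimicrobial protein, was at 0.958, 1.15, 1.53, 1.74 and 2.68 CPM in LP and at 104, 564, 3.46, 19.2 and 8.15 CPM in the dual group (6.40 ± 1.17, adjusted p = 1.05e-04). For all 3 genes mouse 2 was highest in the dual group and mice 3 and 5 lowest. Lcn2 and S100a8 are also neutrophil markers. The neutrophil genes Cxcr2 and Retnlg were at 0 in the same libraries and S100a9 stayed under 1 CPM. The protease inhibitor Slpi rose from 2.11 ± 1.07 to 219.6 ± 112 CPM (6.63 ± 0.46), haptoglobin (Hp) by 5.45 ± 0.58 and Orm1 by 4.61 ± 0.47. Slc11a1, which pumps metal ions out of the phagosome, rose by 1.62 ± 0.07, and Slc40a1, the iron exporter, fell (68.2 ± 20.5 to 30.7 ± 18.8 CPM, −1.17 ± 0.42, adjusted p = 0.0204, and 0.0599 without mouse 1 or 0.0738 without mouse 4). Of 17 complement genes 8 rose and 4 fell (2 fallen without mouse 3 or without mouse 4), against 31.7% and 30.6% of all tested genes. Cfb, the factor B of the alternative pathway, was at 14.01, 8.05, 27.6, 15.7 and 6.84 CPM in LP and at 2018, 1745, 2236, 2395 and 1754 CPM in the dual group (7.13 ± 0.47, adjusted p = 5.75e-10). C3, the central component, rose by 2.94 ± 0.37 to 1563 ± 354 CPM.

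Gas6 and Mertk, which take part in the uptake of dying cells, fell, and the scavenger receptor Marco and the lectin Clec4e rose. Of 36 phagocytic genes 15 rose and 18 fell, against 31.7% and 30.6% of all tested genes. Gas6, which bridges dying cells to the receptor Mertk, was at 445, 387, 428, 470.2 and 347 CPM in LP and at 51.5, 38.4, 58.02, 44.1 and 91.6 CPM in the dual group (−2.87 ± 0.21, adjusted p = 1.48e-09). Mertk itself fell from 51.7 ± 13.9 to 18.4 ± 6.26 CPM (−1.50 ± 0.28), as did the endocytic receptor Lrp1 (2801 ± 316 to 634 ± 70.1 CPM, −2.14 ± 0.17) and the lipid sensor Trem2 (1062 ± 97.3 to 229 ± 139.8 CPM, −2.21 ± 0.27). Marco, a scavenger receptor for bacteria, was at 0.559, 0.0958, 2.06, 0.995 and 0.503 CPM in LP and at 298, 423, 96.5, 240.3 and 71.1 CPM in the dual group (7.95 ± 0.72, adjusted p = 3.09e-08). Clec4e, which detects mycobacterial glycolipid, was at 57.8, 37.7, 141, 106 and 64.00 CPM in LP and at 3511, 2778, 5252, 4216 and 4263 CPM in the dual group (5.62 ± 0.33, adjusted p = 1.39e-10). Its relative Clec4a1 rose by 5.93 ± 0.62 and the inhibitory Fc receptor Fcgr2b by 3.70 ± 0.32. Of 18 alternative activation genes 6 rose and 7 fell, against 31.7% and 30.6% of all tested genes. Sepp1, a selenium carrier, fell from 380.2 ± 67.6 to 64.1 ± 26.2 CPM (−2.57 ± 0.24).

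Lysosomal genes lost a large share of the counts. Of 38 tested members 23 fell and 9 rose, and the list went from between 7.17 and 9.27% of all counts in LP to between 3.71 and 5.91% in the dual group. Ctsd was at 16233, 16901, 26189, 21645 and 24696 CPM in LP and at 9189.5, 8235, 10310.4, 9345 and 12862 CPM in the dual group (−1.08 ± 0.18, adjusted p = 3.75e-05). Man2b1, a mannosidase, fell from 813 ± 93.95 to 224 ± 34.7 CPM (−1.86 ± 0.15), and the proton pump subunits Atp6v0a1 and Atp6v0d2 by −1.88 ± 0.18 and −2.65 ± 0.44. Against them, Ctsc, which activates granule proteases, rose from 121 ± 35.3 to 713 ± 260.1 CPM (2.56 ± 0.25) and the acid phosphatases Acp2 and Acp5 by 1.64 ± 0.11 and 3.76 ± 0.40. Of 12 osteoclast-type genes 5 rose and 5 fell, against 31.7% and 30.6% of all tested genes. Acp5 and the kinase Src (2.64 ± 0.21) stood on one side, and Atp6v0d2 and the transcription factor Nfatc1 (−0.75 ± 0.10) on the other.

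Lipid genes fell more often than they rose. Of 31 genes of LXR, the oxysterol receptor, and of lipid handling 16 fell and 7 rose, against 30.6% and 31.7% of all tested genes. Lpl, the lipoprotein lipase, was at 4739, 4942, 1487, 2264 and 1897 CPM in LP and at 188, 208, 157, 166 and 143 CPM in the dual group (−4.15 ± 0.36, adjusted p = 1.75e-08). Mice 1 and 2 were highest in both groups, by a wider margin in LP. Cyp27a1, which makes an oxysterol, fell from 16.9 ± 1.68 to 1.84 ± 1.25 CPM (−3.18 ± 0.37), and the cholesterol exporter Abcg1 fell (−0.73 ± 0.08). Nr1h3, the LXR alpha gene itself, rose from 21.8 ± 2.23 to 149.8 ± 39.7 CPM (2.78 ± 0.26), as did the acyl-CoA synthetase Acsl1 (127 ± 9.98 to 1739 ± 204 CPM, 3.78 ± 0.22). Of 25 cholesterol synthesis genes 13 fell and 2 rose (1 without mouse 3), the fallen including Dhcr7, which makes the last step to cholesterol (32.4 ± 3.42 to 7.99 ± 2.27 CPM, −2.02 ± 0.18).

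The protease gene Mmp14 rose, and Timp2 and Itga6 fell. Of 28 matrix genes 13 rose and 8 fell (median 0.43, and 0.07 without mouse 2), against 31.7% and 30.6% of all tested genes. Mmp14, a membrane-bound protease, rose from 30.97 ± 8.77 to 918 ± 166 CPM (4.88 ± 0.29), Mmp2 by 4.45 ± 0.47 and Mmp9 by 7.62 ± 1.53, whereas Mmp12, the macrophage elastase, fell from 2621 ± 854 to 137 ± 114 CPM (−4.26 ± 0.56). Timp2, an inhibitor of these proteases, was at 665, 586, 559, 592 and 522 CPM in LP and at 111, 99.6, 70.2, 74.2 and 134 CPM in the dual group (−2.58 ± 0.17, adjusted p = 2.61e-10). Lum and Dcn, proteoglycans from the stromal markers, rose, while Col1a1, of the same list, ran from 6.27 to 33.0 CPM in LP and from 0.835 to 16.6 CPM in the dual group. Col1a1 was not called (adjusted p = 0.180), and was with the mouse as a block (adjusted p = 0.0124). Of 22 adhesion genes 10 rose and 7 fell, against 31.7% and 30.6% of all tested genes. Itga6, the laminin receptor subunit, was at 174, 176, 139.7, 146 and 167 CPM in LP and at 25.2, 22.7, 13.4, 14.2 and 16.9 CPM in the dual group (−3.11 ± 0.22, adjusted p = 1.27e-09). Itgax, which encodes CD11c, fell by 2.31 on the log2 scale, and Itga5, the fibronectin receptor subunit, rose by 1.37 ± 0.14 to 1164 ± 280.2 CPM.

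**Figure D3:**
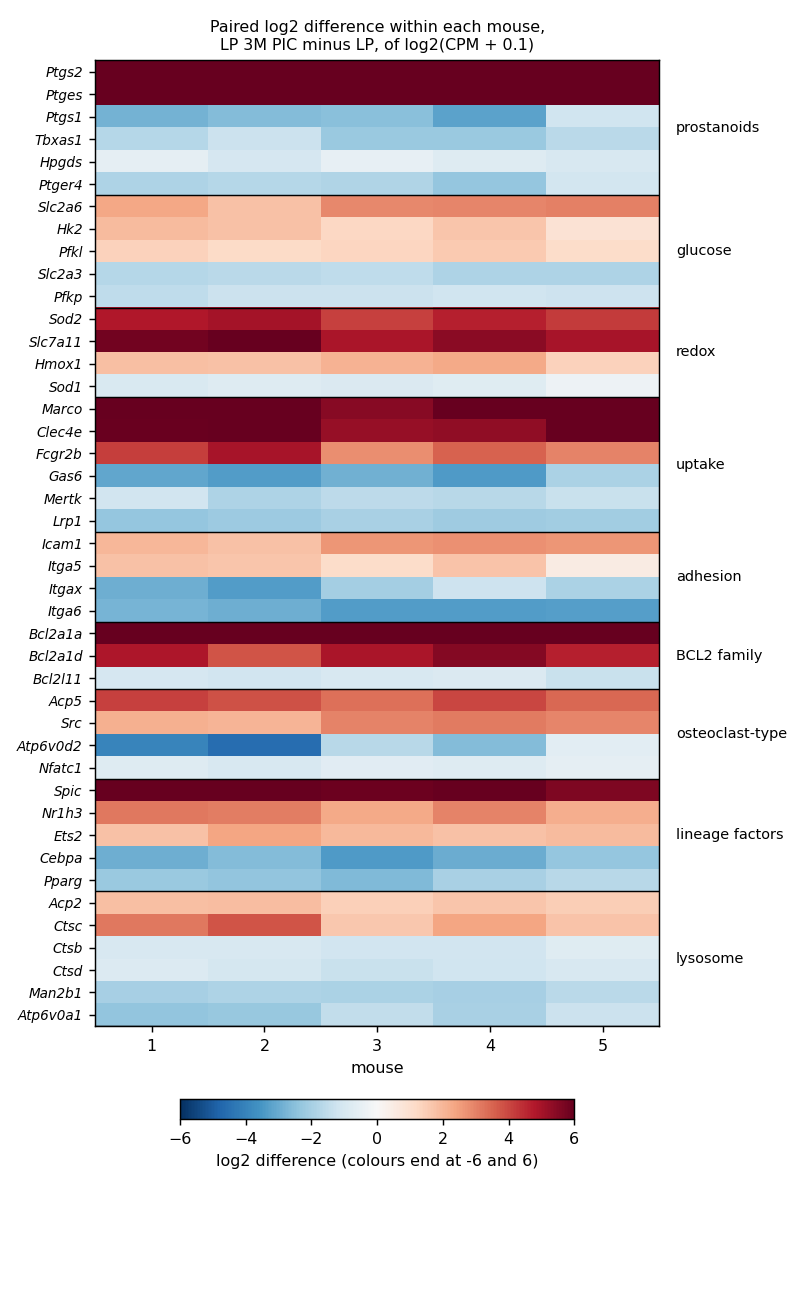
Log2 difference of CPM plus 0.1 between LP 3M PIC and LP within each of mice 1 to 5 (columns) for genes (rows) grouped by family; red is higher and blue lower in the dual formulation, with colours ending at −6 and 6. Within each family some genes were higher and others lower in the same mice, as for Ptgs2 and Ptgs1.

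Among transcription factors that define macrophages, Spic rose and Cebpa and Pparg fell. Of 27 lineage factors 12 rose and 8 fell, against 31.7% and 30.6% of all tested genes. Cebpa, a myeloid regulator, was at 167, 156, 185, 145 and 266 CPM in LP and at 21.5, 25.5, 17.7, 18.5 and 53.5 CPM in the dual group, highest in mouse 5 in both (−2.74 ± 0.34, adjusted p = 1.42e-06). Pparg, a lipid-sensing receptor, fell from 35.4 ± 5.43 to 7.89 ± 1.602 CPM (−2.16 ± 0.15). Spic, a factor of heme-recycling macrophages, rose from 0.901 ± 0.294 to 61.02 ± 16.9 CPM (6.01 ± 0.33) and Ets2 by 1.97 ± 0.18. In the BCL2 family 10 of 23 genes rose and 8 fell, against 31.7% and 30.6% of all tested genes. The survival gene Bcl2a1a rose from 0.457 ± 0.336 to 81.98 ± 16.8 CPM (7.43 ± 0.38) and its copy Bcl2a1d by 4.85 ± 0.33, though reads shared between these near-identical copies make single values uncertain. Bcl2l11, the death-promoting BIM, fell (86.4 ± 9.14 to 41.6 ± 6.997 CPM, −1.06 ± 0.13).

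Genes of cell division fell nearly without exception. Of 40 mitosis genes 39 fell and 1 rose (median −2.45), and of 37 replication genes 34 fell and 1 rose (median −1.57). Kif23, a motor of cell separation, was at 65.3, 69.9, 36.3, 53.2 and 50.7 CPM in LP and at 4.87, 4.46, 4.77, 6.64 and 3.499 CPM in the dual group (−3.51 ± 0.24, adjusted p = 6.54e-10). Mki67, the proliferation marker, was at 348, 289, 162, 253 and 272 CPM in LP and at 101, 69.2, 97.04, 111 and 78.00 CPM in the dual group (−1.53 ± 0.19, adjusted p = 1.06e-06). Pcna, the replication clamp, fell from 444 ± 107 to 123 ± 7.39 CPM (−1.85 ± 0.12), and the helicase subunit Mcm6 by 1.75 on the log2 scale. The 2 rises were those of Pttg1, the securin (19.1 ± 2.37 to 27.6 ± 4.103 CPM, 0.53 ± 0.13), and Ccne1, cyclin E1 (15.9 ± 3.79 to 25.05 ± 8.98 CPM, 0.66 ± 0.28, adjusted p = 0.0455). The Ccne1 call was lost without mouse 1 (0.0924), mouse 3 (0.226) or mouse 4 (0.168). Ccnd1, the cyclin that CSF-1 induces, was at 493, 457, 249, 291 and 296 CPM in LP and at 20.3, 15.8, 11.1, 13.1 and 11.8 CPM in the dual group (−4.62 ± 0.29, adjusted p = 3.63e-10). Both groups were highest in mice 1 and 2. Of 20 G1 cyclins and kinase inhibitors 3 rose (5 without mouse 5) and 8 fell, and the fallen included the inhibitors Cdkn1c (−4.09 ± 0.93) and Cdkn2c (−3.01 ± 0.19).

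The Ccnb1 promoter is shown for its pair of CCAAT boxes, letters found in more windows of mitosis genes than of all genes. It lies at chr13:100786437-100786736 on the minus strand of GRCm38.p6 (RefSeq), with the CCAAT letters in capitals.
Ccnb1: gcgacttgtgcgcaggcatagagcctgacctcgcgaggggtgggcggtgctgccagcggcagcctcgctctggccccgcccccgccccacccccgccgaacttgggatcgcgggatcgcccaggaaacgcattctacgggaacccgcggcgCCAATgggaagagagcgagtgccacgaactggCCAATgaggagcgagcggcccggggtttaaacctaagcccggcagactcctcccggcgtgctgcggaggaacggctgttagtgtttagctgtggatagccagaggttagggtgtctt
The boxes start 99 and 67 bases before the annotated start. CCAAT was found on either strand in 37.7% of all windows and in 25 of 33 of mitosis genes (75.8%). It was also in 13 of 19 windows of the MHC class I list (68.4%), whose members mostly rose, and in 2 of 11 of guanylate-binding proteins and GTPases (18.2%). TTTGAA, the letters of the cell cycle homology region, was found in 11.8% of all windows and in 23 of 33 of mitosis genes (69.7%), but not in the Ccnb1 window. Among lists that rose, it was in 5 of 11 windows of guanylate-binding proteins and GTPases (45.5%). It was in 13 of 42 of antiviral genes (31.0%) and in 1 of 19 of the MHC class I list (5.26%). Neither motif was thus confined to genes that fell. The E2F letters TTTNNCGC were found in 8.2% of all windows and in 15 of 39 of replication genes (38.5%).

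**Figure D4:**
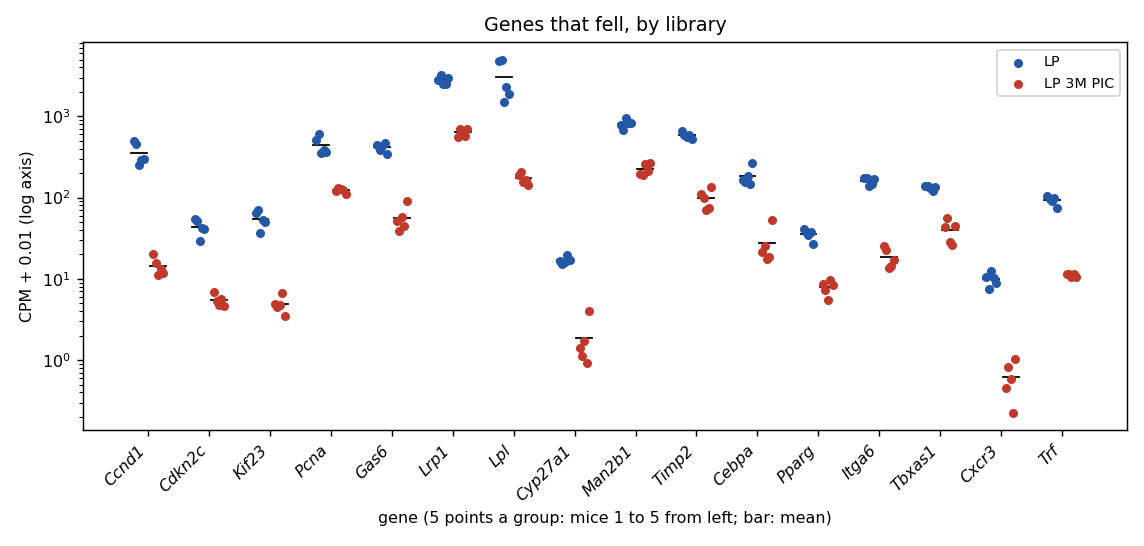
CPM plus 0.01 (log axis) of 16 genes that fell, with 1 point for each of mice 1 to 5 in LP (blue) and LP 3M PIC (red) and a bar at the group mean. The groups do not overlap for any of the 16, and Trf shows little spread within the dual group.

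**Figure D5:**
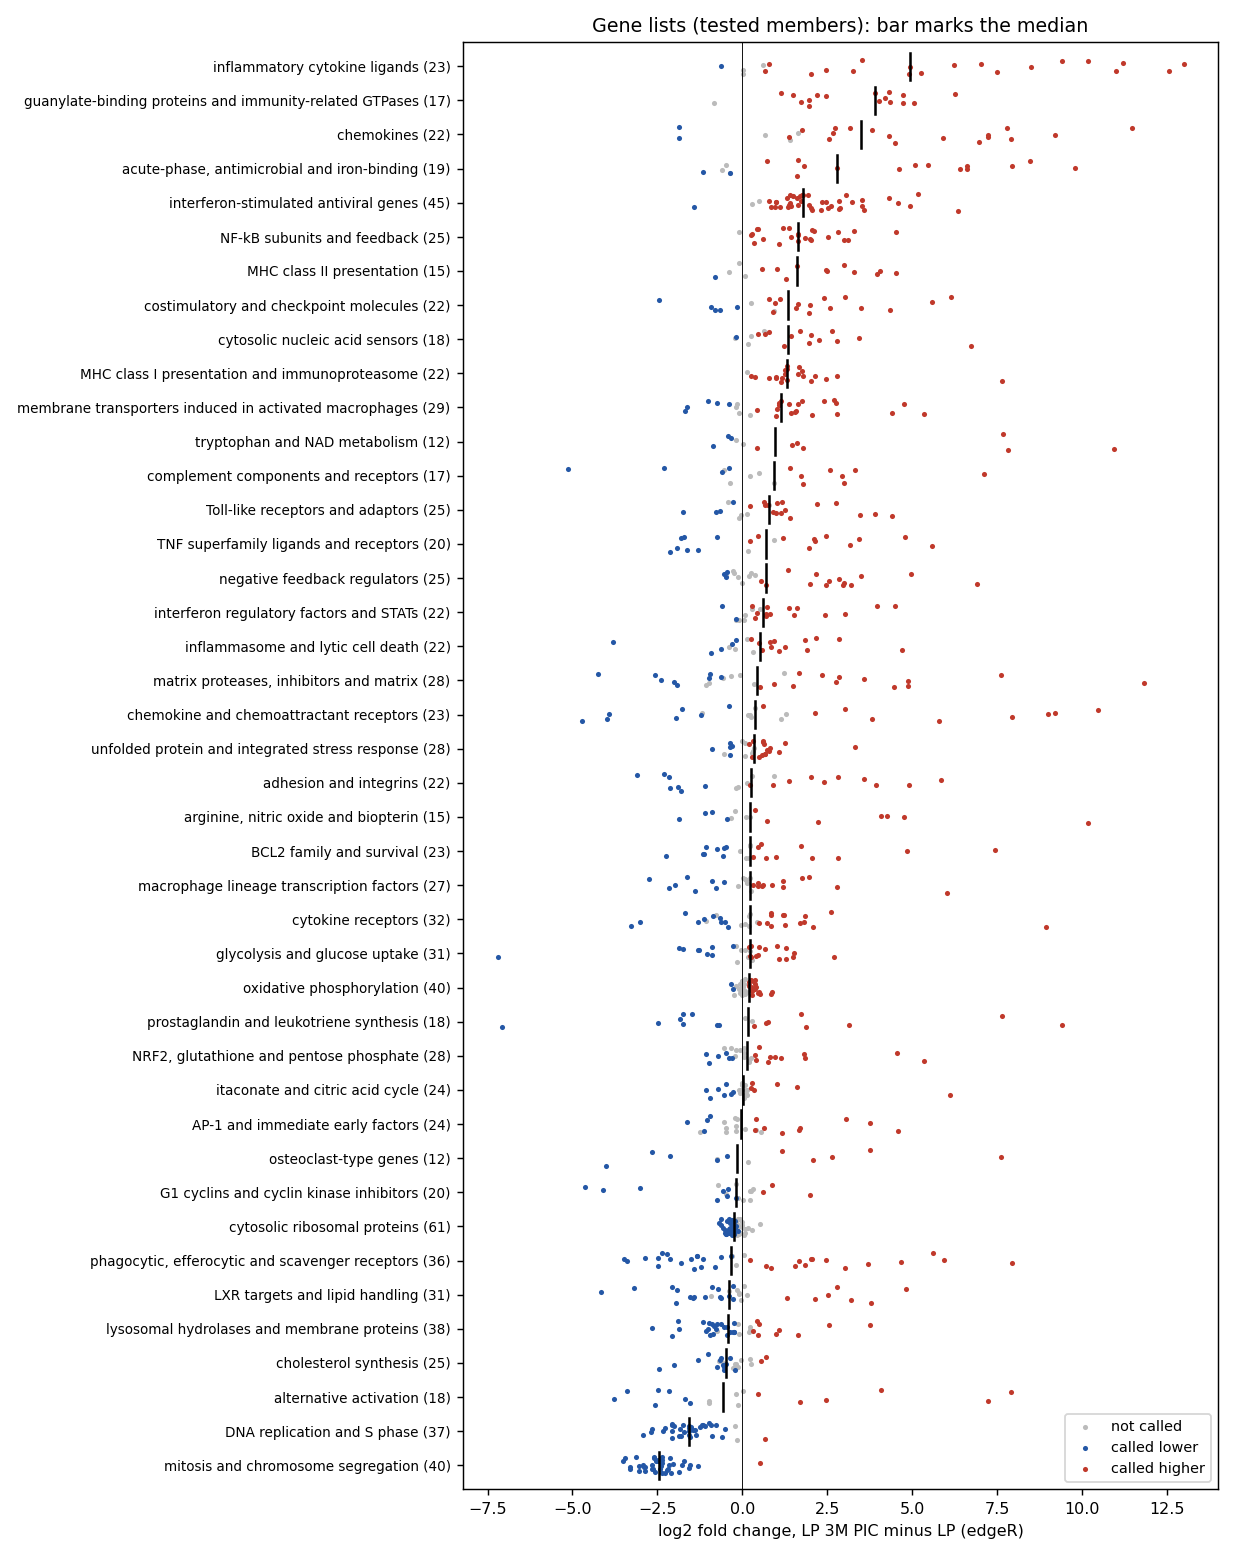
Log2 fold change of LP 3M PIC minus LP (x axis) for every tested member of 42 gene lists (rows, number tested in brackets), ordered by the median, which is the black bar. Red points rose, blue points fell and grey points were not called; medians run from −2.45 for mitosis to 4.94 for cytokine ligands, and lists in the middle hold strong changes of both signs.

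Some genes that changed alike were neighbours on the chromosome. Placed by GENCODE M21 on GRCm38, 29 runs of at least 4 adjacent tested genes were all called in 1 direction with a change of at least 1, 19 of them higher and 10 lower. The longest held 9 genes of the MHC class II region, from H2-DMb1 to H2-Eb1 (chromosome 17, 34153072 to 34316674), with changes of 1.03 to 4.06. Others were the Ms4a genes (chromosome 19, 11404770 to 11604849), the Ifit genes (chromosome 19, 34550694 to 34650009), the Gbp genes from Gbp5 to Gbp2 (chromosome 3, 142493978 to 142638008) and the Clec4a genes (chromosome 6, 122921848 to 123247021). Ptgs2 rose with its antisense neighbours Ptgs2os and Ptgs2os2 and with Pla2g4a, which frees arachidonic acid (chromosome 1, 149829618 to 150164948, changes of 1.87 to 9.42). The strand setting of the counting is not given, so reads of overlapping antisense genes cannot be told apart. Among the fallen runs was that of the fatty acid desaturases Fads3, Fads2 and Fads1 with Rab3il1 and Fen1 (chromosome 19, 10001669 to 10204169, −2.83 to −1.09).

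The changes had a similar profile in the 5 mice and differed in how far they went. Over all 12132 tested genes, the paired log2 differences correlated between mice at 0.826 to 0.934 (median 0.883). Over the 1000 most variable genes of these 10 libraries, the first principal component held 86.5% of the variance and separated the groups. Dual mouse 5 stood at 43.7 on it and the other dual libraries at 57.9 to 64.1. The second component held 7.04% and put mice 1 and 2 on one side and mice 3 to 5 on the other in both groups. The median paired log2 difference of the 1176 risen genes was 2.08, 2.17, 1.84, 2.05 and 1.84 in mice 1 to 5, and that of the 1500 fallen genes −1.86, −1.83, −1.56, −1.72 and −1.45. These genes were called in the same libraries, so their shared sign was largely set in advance and only the sizes are compared. The genes with the widest spread over mice were S100a8, U90926, Lcn2, Il1a, Marco and Edn1. Edn1, which encodes the vessel-constricting peptide endothelin 1, was at 0.1198, 0, 0.219, 0.166 and 0.294 CPM in LP and at 114, 119, 35.4, 83.5 and 14.98 CPM in the dual group (8.65 ± 0.85, adjusted p = 7.96e-08).

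Many of these genes also set the dual formulation apart from each single one. These comparisons share the dual libraries with the one against LP. Over all tested genes 44.5% differed from LP PIC, 41.5% from LP 3M and 21.4% from both (2591 genes, and 1705 without mouse 1). Of the 2676 genes called against LP with a change of at least 1, 1666 differed from LP PIC, 1906 from LP 3M, 1211 from both and 315 from neither. Among these 2676 genes, the dual level was above LP and both single ones for 462 (17.26%) and below all 3 for 641 (23.95%). The 2676 were selected with the same dual libraries, so these shares cannot be set against those over all tested genes. Il12b averaged 1.22 CPM in LP PIC, 1.94 CPM in LP 3M and 353 ± 190.1 CPM in the dual group. Ptgs2 averaged 36.8, 159.7 and 1479 ± 600.4 CPM in the same order, and both genes differed from each single formulation. Gbp5 averaged 141, 15.3 and 248 ± 109.5 CPM and differed from LP 3M (4.02 ± 0.55) but was not called against LP PIC (0.81 ± 0.48, adjusted p = 0.183). Marco averaged 2.45, 329 and 226 ± 146 CPM and differed from LP PIC (6.51 ± 0.65) but was not called against LP 3M (−0.54 ± 0.50, adjusted p = 0.401). Trf averaged 30.2, 26.6 and 11.03 ± 0.516 CPM and was lower with the dual formulation than with either (−1.45 ± 0.11 and −1.27 ± 0.11). Mki67 averaged 40.5, 156 and 91.3 ± 17.2 CPM, so that the dual level lay above LP PIC (1.17 ± 0.19) and below LP 3M (−0.77 ± 0.18).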

How the data were processed

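The deposited values are raw read counts per gene symbol, 1 table per library, which the authors had not normalised, as whole numbers that sum to a different total in each table. Build GRCm38, STAR 2.7.11b, HTSeq 0.13.5, DESeq2 1.44.0 and FastQC 0.11.1 are listed in the submitters' processing notes. The annotation and strand setting are not named there. The 5 entries of each table that name no gene stayed out of totals and tests. Reads outside genes were 6.68 to 8.58% and ambiguous reads 1.14 to 1.78% in the 10 libraries.

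Genes were kept by filterByExpr (minimum count 10, total 15) and libraries scaled by TMM. The two-sided quasi-likelihood F-test of edgeR 4.0.16 (R 4.3.3) was run on all 20 libraries in 1 model of 4 condition means, with Benjamini-Hochberg adjustment over all 12132 genes and a threshold of 0.05. The SE was derived from F as the log2 change over its root, a rough guide at few counts. The biological coefficient of variation was 0.194. CPM of genes use scaled library sizes, and sums of markers use plain totals. Bounds against a group without counts use 3 counts over the group. Bounds and counting intervals (95% exact) cover counting error only. No 2 of the 10 libraries were duplicates (chi-squared per degree of freedom 7.74 to 566.6). Paired differences use log2(CPM + 0.1). The code was tested on simulated data.

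Libraries with the same number come from the same mouse. Their deviations from the group means correlated at 0.225 to 0.427 in each of the 5 mice and at −0.322 to 0.206 between different mice, so the mouse was fitted as a block in an alternative. Other alternatives were DESeq2 1.42.0, limma-voom (limma 3.58.1), other size factors, other filters, the 10 libraries alone, and leaving out each mouse, LP of mouse 2 or LP 3M PIC of mouse 3. Leaving out LP 3M PIC of mouse 5 was added after seeing the data, since it lay nearest to LP on the first principal component.

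The members, the 42 gene lists, the marker lists and the tests were chosen with earlier results of these data known. Genes were named by rule: the 15 largest rises and falls at 5 CPM or more that went 1 way in 5 of 5 mice, the 8 largest gains and losses in CPM, the 6 smallest p-values, the 6 widest spreads over mice at 10 CPM or more, and up to 6 members of each list by p with the strongest against its majority. A panel of genes picked by hand, with earlier results of these data known, was named as well. Arg1, Cd86, Csf1r, Ifnb1, Il12a, Irf7 and Isg15 entered through this panel and not through a ranking. Cdkn1c, Cx3cr1, Hpgd, Mmp9, Mmp12, Ptgs1, Tlr4, Trem2 and the genes of the chromosomal runs fall outside both the rule and the panel. They were chosen after their values were seen. The margin of 15 percentage points around the shares of all genes was also set after the counts were seen. Of the 24421 symbols, 23998 (98.3%) were found in GENCODE M21 on GRCm38, 664 of them under an older symbol. Promoter windows of 250 bases before to 50 after the start came from RefSeq (GRCm38.p6) and covered 9292 of the tested genes. Some genes are not reported here.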

Additional observations from a re-analysis of the deposited data

Results flagged for a closer look

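In 20 of 436 groups of 5 libraries (218 genes named, 2 groups each) 1 library stood apart from the other 4, by Dixon's test on log2(CPM + 0.1). Chance alone gives about 1 in 20 groups. In the dual library of mouse 1 it was Col1a1 at 0.876 CPM against 8.56 to 17.5 in the other mice. In the dual library of mouse 2 it was Lifr at 0.8100 CPM against 0.324 to 0.341 in the other mice. In the dual library of mouse 3 it was Acp5 at 122 CPM against 193 to 217 in the other mice. In the dual library of mouse 4 it was Ptgs1 at 1.94 CPM against 4.44 to 6.19 in the other mice. In the dual library of mouse 5 they were Atf3 at 219 CPM against 264 to 270, Ebi3 at 123 CPM against 209 to 238, Hpgd at 0.0427 CPM against 0, Il6 at 72.1 CPM against 231 to 369, Ptgs2os at 0.768 CPM against 3.55 to 4.23, Shisa3 at 11.9 CPM against 71.7 to 140, Slamf7 at 724 CPM against 1020 to 1130 and Sod1 at 192 CPM against 134 to 149 in the other mice. In the LP library of mouse 1 they were Ido1 at 0.0399 CPM against 0 and Mmp2 at 0.479 CPM against 1.51 to 2.28 in the other mice. In the LP library of mouse 2 it was Acp2 at 158 CPM against 184 to 194 in the other mice. In the LP library of mouse 3 they were Bcl2a1a at 1.05 CPM against 0.2400 to 0.373 and U90926 at 0.131 CPM against 0 in the other mice. In the LP library of mouse 4 it was Ifnb1 at 0.0414 CPM against 0 in the other mice. In the LP library of mouse 5 they were Ccl6 at 23.4 CPM against 64.5 to 94.4 and Cd14 at 213 CPM against 283 to 295 in the other mice. Of the 20, 8 were in the dual library of mouse 5, which also stood nearest to LP on the first principal component. The LP values of Ido1, Ifnb1 and U90926 and the dual value of Hpgd are 1 to 3 counts against none.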

How the results depend on the processing

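The count of called genes stayed between 6740 and 7962 under the 15 alternatives, against 7551, and 6658 to 7522 of the calls were shared, with none of opposite sign. Other size factors, tools and filters moved the median of all genes by at most 0.014 on the log2 scale and left 50.3 to 50.7% of calls on the higher side. With the mouse as a block 7958 genes were called, 7496 of them shared with the fit without it, 462 only with the block and 55 only without it. Among the 218 genes named, the block changed the call of Col1a1 only. The count of genes that differed from both single formulations was 2591 and ran from 1705 (without mouse 1) to 3102 (without LP 3M PIC of mouse 5) when a mouse or library was left out. The cause was not tested. Medians of 2 lists with strong changes of both signs turned round: prostaglandin and leukotriene genes from 0.18 to −0.23 with limma-voom and from −0.09 (without LP 3M PIC of mouse 3) to 0.35 (without mouse 2) when a mouse or library was left out, and NRF2 genes from 0.13 to between 0.21 (without mouse 1) and −0.02 without LP 3M PIC of mouse 5, an alternative added after seeing the data. With limma-voom the calls of Arg1 (adjusted p = 0.226), S100a8 (0.0736), U90926 (0.154), Dcn (0.123), Mmp9 (0.071) and Ccne1 (0.06) were lost. Depth limits genes under 0.308 CPM, which is 3 counts in the shallowest library.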
